A study of Mus musculus with 20 samples.

Results

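The genes described here serve the transport of newly made proteins from the endoplasmic reticulum (ER) to the Golgi apparatus. They were taken as a named list of 35 symbols, and all 35 were present among the 16047 genes of the deposited matrix. By role, 13 encode the COPII coat and its exit sites, 10 encode cargo receptors, 9 encode the COPI coat and its Arf GTPases, and 3 encode tethers and SNAREs. The transcripts were counted in single eYFP+ B cells and plasma cells of lymph nodes from C57BL/6 mice. The animals had received NP-KLH, a hapten on a carrier protein, in Sigma Adjuvant System, and cells were taken at day 15 of the primary response, 4 days after tamoxifen by gavage. Neither the recombinase that switches on eYFP nor the number or age of the mice is given in the labels used here. The 1367 cells lie on 20 plates under 2 sampleIDs, 10 plates of C57BL/6F and 10 of C57BL/6M. All groups share strain, immunisation and tamoxifen, and they differ by sort gate, by the authors' annotated state and by sampleID. The authors also give each cell a sex, as the letter F or M. By sort gate, 393 cells came from the plasma cell gate, 282 from the pre-plasma gate, and 692 from the dark zone and light zone gates, which are joined as the germinal centre gates.

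Secretory and membrane proteins leave the ER in vesicles coated with COPII. The small GTPase Sar1, loaded by the exchange factor Preb (Sec12), recruits the inner coat of Sec23 and Sec24, and the outer cage of Sec13 and Sec31 then shapes the bud at exit sites that Sec16a and Tfg organise. Receptors such as Lman1 with Mcfd2, Surf4 and the p24 proteins (the Tmed genes) load cargo, and KDEL receptors return escaped ER residents in COPI vesicles, whose coat is recruited by Arf GTPases. Plasma cells are known for a high rate of antibody secretion and for an enlarged ER, whereas germinal centre B cells mainly divide, mutate their antibody genes and present antigen.

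Counts were summed per plate and gate, with between 11 and 42 cells and between 594230 and 5201904 counts in each pool. Levels are CPM, counts scaled to the depth of their pool, with TMM, a method that sets libraries to a common scale over most genes. Plate 6 of C57BL/6F held 10 cells and 5979 counts in all and had no pool of the 5 cells required, which left 19 plates. No cell name occurred more than once. Median depth per cell was 59514 counts for the plasma cell gate, 86862 counts for the pre-plasma gate and 53276 counts for the germinal centre gates. The median share of spike-in RNA was 3.64% for the plasma cell gate, 2.45% for the pre-plasma gate and 4.0% for the germinal centre gates, so a cell of the pre-plasma gate gave more counts per spike-in count. Sdc1, a surface marker of plasma cells, stood at 656 CPM over the summed cells of the plasma cell gate, 64.8 CPM for the pre-plasma gate and 0.0865 CPM for the germinal centre gates. Xbp1 and Irf4 had the same order of gates, whereas Prdm1 stood at 48.4 CPM for the plasma cell gate, 67.5 CPM for the pre-plasma gate and 0.80 CPM for the germinal centre gates, and Jchain was also present at 2518 CPM in the germinal centre gates. Pax5, a transcription factor of B cells that plasma cells switch off, stood at 0.0691 CPM for the plasma cell gate, 17.1 CPM for the pre-plasma gate and 84.9 CPM for the germinal centre gates. Of 18 listed markers of T cells, myeloid cells, stroma and endothelium, and red cells, Cd3e and Pdpn were not analysed here, Cd68 lay between 31.4 and 77.8 CPM and Pecam1 between 26.0 and 61.8 CPM, and the other 14 lay between 0 and 7.28 CPM in every gate.

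Most of the listed genes rose in the plasma cell gate. Against the germinal centre gates, 32 of the 35 genes were higher and 0 were lower (edgeR's quasi-likelihood test with Benjamini-Hochberg adjustment over 6865 genes, threshold 0.05, 19 plates), where 13.6% of all genes tested were higher and 21.3% lower. Differences are given as log2 fold change ± standard error. The median log2 fold change was 2.20 over the 35 genes and -0.50 over all genes tested. The highest and lowest plates of the gates did not overlap for 10 of the 35, against 2.99% of all genes, and 18 were higher in the plasma cell gate in every one of the 19 plates, against 5.43% of all genes. Summed over the list, the level was 18651 CPM (13877 to 22164) in the plasma cell gate, 10669 CPM (6101 to 13031) in the pre-plasma gate and 4420.0 CPM (3573 to 4982) in the germinal centre gates, given as the median over plates with the range. Sec24b, Sec24c and Golgb1 did not pass the test. The labels do not tie plates to animals, so p-values cover only how plates differ among themselves.

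**Figure D1:**
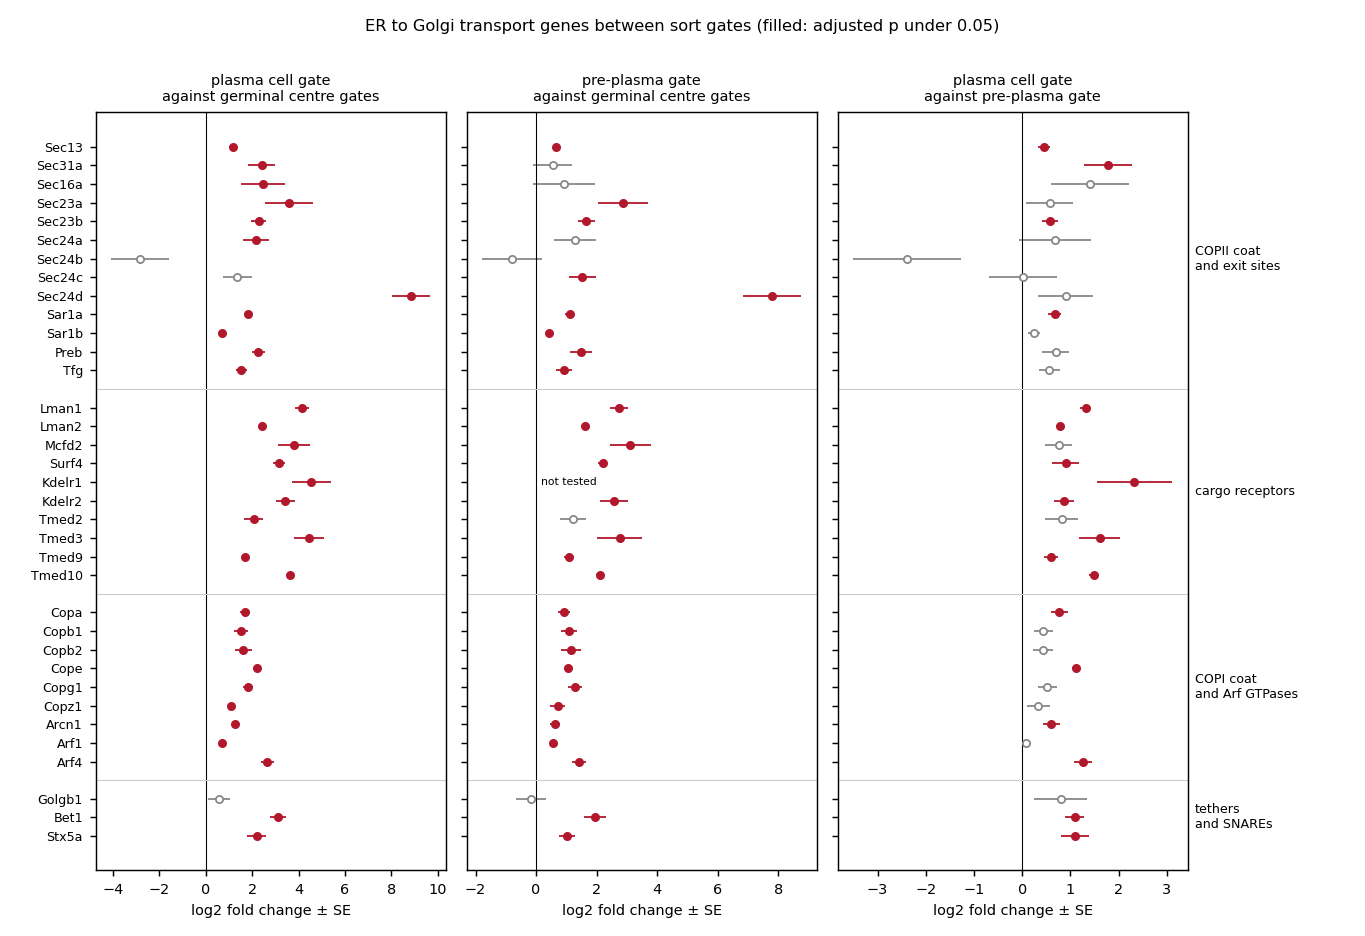
Log2 fold change with its standard error for each gene in the 3 gate comparisons, in role groups; filled red points passed the adjusted p of 0.05 and open points did not. In the comparison of the plasma cell gate with the germinal centre gates 32 of 35 points are filled, and Sec24b is the only gene left of 0. Kdelr1 was not tested in the comparison of the pre-plasma gate with the germinal centre gates.

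Of the 4 Sec24 paralogues, which bind cargo in the inner coat of COPII, Sec24a and Sec24d rose, and Sec24b and Sec24c did not pass. Sec24d had lowest, median and highest plate values of 0, 194 and 334 CPM in the plasma cell gate, 0.479, 76.6 and 172 CPM in the pre-plasma gate, and 0, 0 and 40.6 CPM in the germinal centre gates. It was at 0 in 13 of the 19 germinal centre plates, and the gates overlapped only through the 3 lowest plates of the plasma cell gate. Its fitted difference was 8.84 ± 0.81 log2 (adjusted p = 3.73e-09). Sec24d passed the count filter through the plasma cell gate, where it is high, so this p-value is no support beyond the plate values. A fitted value against plates at 0 depends on the model, and the summed counts give a smaller figure, with 5046 counts (174 CPM) in the plasma cell gate and 177 counts (3.83 CPM) in the germinal centre gates, a ratio of 45.6. In single cells, 156 of 393 plasma gate cells and 11 of 692 germinal centre gate cells held a Sec24d count. Of the 177 counts in the germinal centre gates, 1 cell held 29.4%. After each cell was thinned to 10000 counts, which left out 18 shallower cells of the plasma cell gate and 53 of the germinal centre gates, the share was 32.8% (28.1% to 37.8%) in the plasma cell gate and 0.469% (0.0969% to 1.37%) in the germinal centre gates, with exact Clopper-Pearson intervals at 95% that cover counting error only.

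Sec24b had a negative difference that did not pass. Its plate values were 0, 1.33 and 29.2 CPM in the plasma cell gate, 0, 17.8 and 51.6 CPM in the pre-plasma gate, and 0, 29.9 and 71.1 CPM in the germinal centre gates, again as lowest, median and highest. The plasma cell gate was above the germinal centre gates in 3 of 19 plates, and its difference was -2.82 ± 1.25 log2 (adjusted p = 0.0831). DESeq2 called it lower at -2.62 ± 0.87 log2 (adjusted p = 0.00655), where that test called 2552 of all 6865 genes lower. Counts were few, with 144 in 14 plasma gate cells, of which 1 cell held 25.7%, against 1254 in 60 germinal centre gate cells. Sec24a had plate values of 0, 109 and 199.9 CPM in the plasma cell gate, 0.479, 52.1 and 282 CPM in the pre-plasma gate, and 0, 16.1 and 52.3 CPM in the germinal centre gates, and it rose by 2.17 ± 0.56 log2 (adjusted p = 0.0037). Sec24c stood at 1.36 ± 0.63 log2 (adjusted p = 0.0993), with plate values of 0, 95.3 and 196 CPM in the plasma cell gate, 7.91, 85.2 and 175 CPM in the pre-plasma gate, and 0.349, 38.4 and 90.6 CPM in the germinal centre gates. All gates overlapped for Sec24c.

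Stretches of 250 bases before 1 annotated start site each are shown for Sec24d and Sec24b, the paralogues at the ends of the list, and for Tmed10, whose plates separate all gates. They come from RefSeq on GRCm38.p6, the assembly of mm10, which held such windows for 30 of the 35 genes. Capitals mark TGACGTGG, an element bound by factors of the unfolded protein response (UPRE), and the shorter core ACGTG, on either strand. The UPRE contains the core. Overlapping matches are marked once, so the CACGT of Tmed10, with the g after it, also holds the core on the shown strand. Sec24d lies at chr3:123267246-123267495 (plus strand), Sec24b at chr3:130060908-130061157 (minus strand) and Tmed10 at chr12:85374718-85374967 (minus strand). A gene can have several start sites: the Sec24d and Sec24b windows lie within the outer bounds RefSeq gives these genes, chr3:123264801-123365641 and chr3:129982759-130061599, so each precedes a start inside the gene and not its outermost one.
Sec24d: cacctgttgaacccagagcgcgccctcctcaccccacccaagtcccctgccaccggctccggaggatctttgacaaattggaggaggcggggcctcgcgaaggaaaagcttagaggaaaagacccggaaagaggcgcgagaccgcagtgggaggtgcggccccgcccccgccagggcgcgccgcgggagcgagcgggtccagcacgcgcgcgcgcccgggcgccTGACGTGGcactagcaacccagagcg
Sec24b: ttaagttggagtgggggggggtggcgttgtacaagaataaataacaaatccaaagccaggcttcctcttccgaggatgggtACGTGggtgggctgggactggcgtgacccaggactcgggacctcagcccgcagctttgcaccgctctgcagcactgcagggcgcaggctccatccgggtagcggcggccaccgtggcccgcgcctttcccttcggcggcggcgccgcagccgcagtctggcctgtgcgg
Tmed10: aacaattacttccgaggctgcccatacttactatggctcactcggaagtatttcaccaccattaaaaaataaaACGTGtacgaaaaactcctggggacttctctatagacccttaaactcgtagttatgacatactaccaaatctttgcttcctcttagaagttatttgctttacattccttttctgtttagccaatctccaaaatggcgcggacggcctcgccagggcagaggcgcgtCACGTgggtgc
The UPRE of Sec24d begins 26 bases before the start site of its window. Over all 32851 windows in the table, 0.563% hold the UPRE, against 3 of the 34 windows of the list (8.82%), in Arf1, Copb1 and Sec24d. The core was found in 44.1% of the windows of the list and 16.6% of all windows, in 15 genes. The longer ER stress response element (ERSE) was in 0 of the 34 windows and in 0.113% of all. These are matches of letters and were chosen among several looked at, and the base composition of the windows was not matched.

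The partners of Sec24 in the inner coat are the Sec23 paralogues, which activate the GTPase of Sar1. Sec23a had plate values of 0, 62 and 209 CPM in the plasma cell gate, 5.31, 37.5 and 129.5 CPM in the pre-plasma gate, and 0, 5.6 and 56.9 CPM in the germinal centre gates, and it rose by 3.58 ± 1.04 log2 (adjusted p = 0.00879). Sec23b had plate values of 169.6, 343 and 589.6 CPM in the plasma cell gate, 132, 219.5 and 349.6 CPM in the pre-plasma gate, and 7.55, 69.2 and 168 CPM in the germinal centre gates, and it rose by 2.27 ± 0.33 log2 (adjusted p = 4.8e-06). Its lowest plate in the plasma cell gate lay just above the highest in the germinal centre gates. The GTPase Sar1a had 283, 577 and 751 CPM in the plasma cell gate, 246, 335 and 456 CPM in the pre-plasma gate, and 94.7, 148 and 322 CPM in the germinal centre gates, and it rose by 1.82 ± 0.15 log2 (adjusted p = 3.46e-10). Its paralogue Sar1b had 351, 579 and 928 CPM in the plasma cell gate, 371, 456 and 757 CPM in the pre-plasma gate, and 187, 350.4 and 502 CPM in the germinal centre gates, and it rose by 0.70 ± 0.14 log2 (adjusted p = 0.000278). For both genes the plasma cell gate overlapped with the germinal centre gates. Preb rose by 2.26 ± 0.27 log2 (adjusted p = 2.77e-07) and was higher in the plasma cell gate in 19 of 19 plates. In the outer cage, Sec31a rose by 2.41 ± 0.58 log2 (adjusted p = 0.00188) and Sec13, which is also part of the nuclear pore, by 1.17 ± 0.17 log2 (adjusted p = 4.31e-06). Of the exit site organisers, Tfg rose by 1.52 ± 0.24 log2 (adjusted p = 1.42e-05). Sec16a passed narrowly at 2.46 ± 0.94 log2 (adjusted p = 0.0461), with plate values of 0, 49.9 and 109.6 CPM in the plasma cell gate, 0, 23 and 105 CPM in the pre-plasma gate, and 0, 13.4 and 50.9 CPM in the germinal centre gates. In all, 11 of 13 COPII genes rose, with a median of 2.17 log2.

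**Figure D2:**
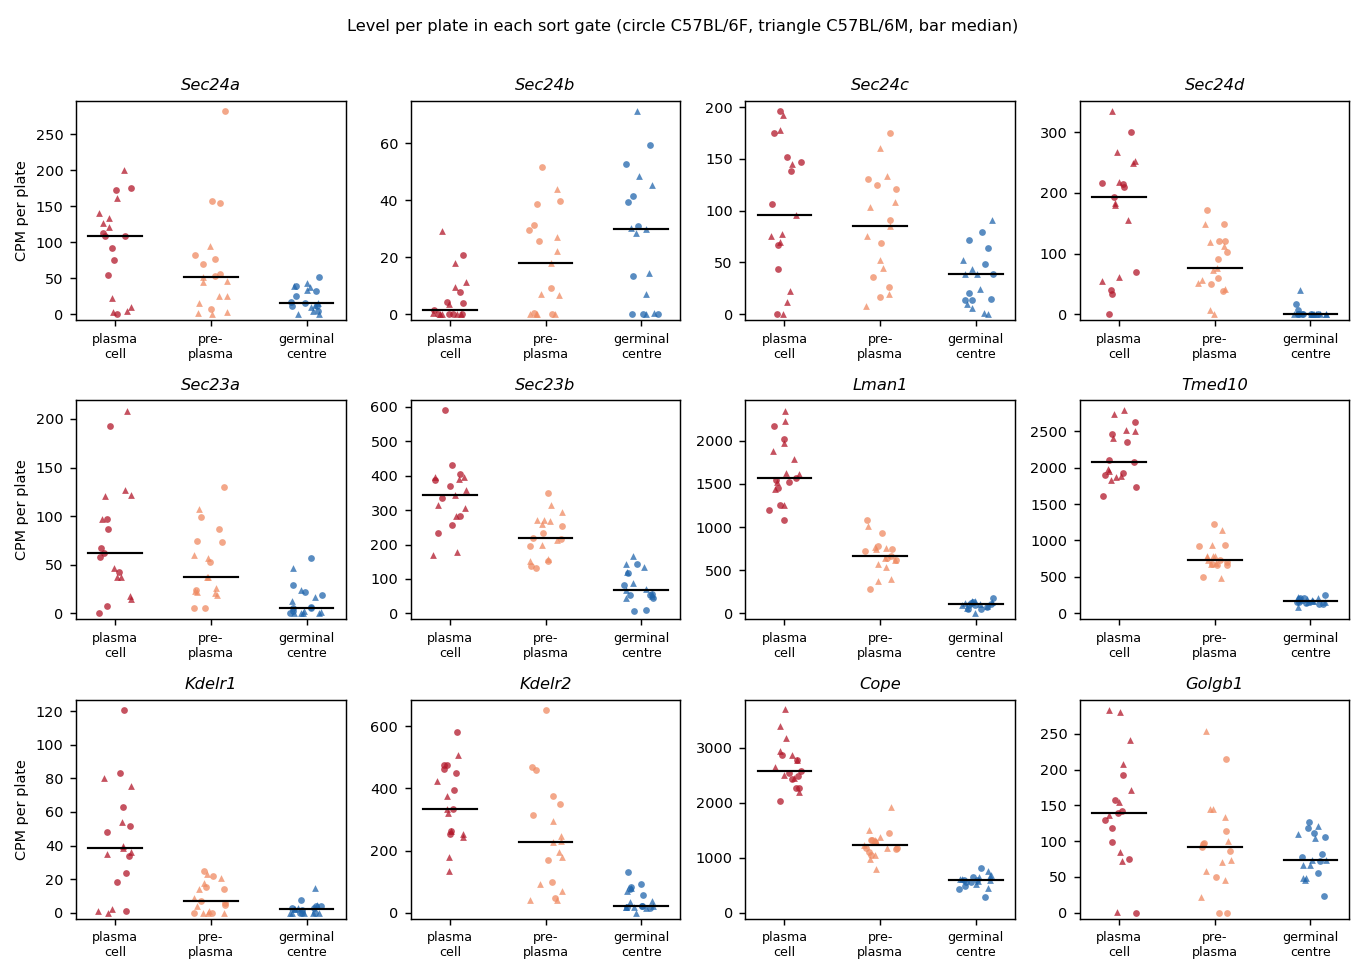
CPM of 12 genes in each of 19 plates for the plasma cell, pre-plasma and germinal centre gates (circles, C57BL/6F; triangles, C57BL/6M; bars, medians; each panel has its own axis from 0). Tmed10 falls into 3 separate bands, whereas Sec24b has its highest values in the germinal centre gates and Sec24c and Golgb1 overlap between all gates.

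All 10 cargo receptors rose in the plasma cell gate, with a median of 3.53 log2, the highest of the 4 role groups. Summed, they came to 7859 CPM (6639 to 10155) in the plasma cell gate, 4026 CPM (2023 to 5476) in the pre-plasma gate and 1061 CPM (746 to 1279) in the germinal centre gates. Lman1, the lectin that carries glycoproteins out of the ER, had plate values of 1079, 1573 and 2350.0 CPM in the plasma cell gate, 287, 669 and 1083 CPM in the pre-plasma gate, and 0, 106 and 181 CPM in the germinal centre gates. It rose by 4.14 ± 0.30 log2 (adjusted p = 2.78e-11), and the lowest plasma gate plate lay far above the highest germinal centre plate. Mcfd2, its soluble partner, had plate values of 65.2, 179.7 and 401 CPM in the plasma cell gate, 31.4, 88.5 and 274 CPM in the pre-plasma gate, and 0, 14.2 and 67.5 CPM in the germinal centre gates, and it rose by 3.81 ± 0.68 log2 (adjusted p = 8.2e-05). Lman2, a related lectin, rose by 2.44 ± 0.10 log2 (adjusted p = 2.09e-16) without overlap between the gates.

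The KDEL receptors retrieve ER chaperones from the Golgi. Kdelr1 had plate values of 0, 38.7 and 121 CPM in the plasma cell gate, 0, 6.64 and 25.1 CPM in the pre-plasma gate, and 0, 2.05 and 14.9 CPM in the germinal centre gates. It rose by 4.55 ± 0.83 log2 (adjusted p = 0.000114), although 1 cell held 19.5% of its 1155 counts in the plasma cell gate. The germinal centre gates held 134 counts in 17 of 692 cells, and 1 cell held 37.3% of them. Kdelr1 was too low to be tested between the pre-plasma gate and the germinal centre gates. It passed the count filter here through the plasma cell gate, so the p-value is no support beyond the plate values. Kdelr2 rose by 3.44 ± 0.41 log2 (adjusted p = 1.83e-07), with plate values of 134, 335 and 581 CPM in the plasma cell gate, 41.2, 227 and 654 CPM in the pre-plasma gate, and 0, 20.7 and 131 CPM in the germinal centre gates, and no overlap between the plasma cell gate and the germinal centre gates. Surf4, a receptor for soluble cargo, rose by 3.16 ± 0.25 log2 (adjusted p = 1.64e-10), also without overlap.

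Of the p24 proteins, which cycle between ER and Golgi, Tmed10 is given in full because its plates separate the gates, a choice made after its values were seen. Its plate values were 1617, 2077 and 2787 CPM in the plasma cell gate, 486, 738 and 1219.6 CPM in the pre-plasma gate, and 90.3, 167 and 253 CPM in the germinal centre gates. No value of one gate reached into another, and the difference between the plasma cell gate and the germinal centre gates was 3.63 ± 0.13 log2 (adjusted p = 6.64e-18). Tmed3 had plate values of 90.6, 268 and 441 CPM in the plasma cell gate, 0, 99.5 and 275 CPM in the pre-plasma gate, and 0, 15.9 and 82.5 CPM in the germinal centre gates, and it rose by 4.46 ± 0.63 log2 (adjusted p = 3.31e-06). Tmed2 rose by 2.07 ± 0.40 log2 (adjusted p = 0.00022) and Tmed9 by 1.70 ± 0.17 log2 (adjusted p = 1.12e-08), the smallest change among the cargo receptors.

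All 9 genes of the COPI coat and the Arf group rose, with a median of 1.62 log2. Cope, the epsilon subunit, had plate values of 2027, 2582 and 3705 CPM in the plasma cell gate, 791, 1232 and 1929 CPM in the pre-plasma gate, and 279, 586 and 817 CPM in the germinal centre gates, and it rose by 2.21 ± 0.10 log2 (adjusted p = 1.49e-15). Copg1, a gamma subunit, had plate values of 62.8, 310.0 and 549.5 CPM in the plasma cell gate, 91.7, 239 and 329 CPM in the pre-plasma gate, and 18.2, 96.4 and 190.1 CPM in the germinal centre gates, and it rose by 1.84 ± 0.22 log2 (adjusted p = 1.71e-07). Copa, the alpha subunit, had plate values of 78.1, 371 and 499.6 CPM in the plasma cell gate, 81.3, 193 and 333 CPM in the pre-plasma gate, and 47, 105 and 275 CPM in the germinal centre gates, and it rose by 1.70 ± 0.22 log2 (adjusted p = 6.49e-07). The remaining coat subunits lay between Copz1 at 1.09 ± 0.19 log2 and Copb2 at 1.62 ± 0.37 log2, with Arcn1 at 1.28 ± 0.17 and Copb1 at 1.51 ± 0.32, all called. Arf1 and Arf4 load coats onto membranes. Arf4 had plate values of 393, 1089 and 1599 CPM in the plasma cell gate, 65.9, 568 and 776 CPM in the pre-plasma gate, and 0.581, 169 and 303 CPM in the germinal centre gates, and it rose by 2.64 ± 0.28 log2 (adjusted p = 3.19e-08), with no overlap between the plasma cell gate and the germinal centre gates. Arf1 had plate values of 376, 742 and 1176 CPM in the plasma cell gate, 268, 739 and 1169.8 CPM in the pre-plasma gate, and 157, 424 and 717 CPM in the germinal centre gates, and it rose by 0.69 ± 0.11 log2 (adjusted p = 2.52e-05), the smallest called change of the list.

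Bet1 and Stx5a are SNAREs of the vesicles and of the Golgi acceptor, and both rose. Bet1 had plate values of 249, 469 and 636 CPM in the plasma cell gate, 58.3, 237 and 374 CPM in the pre-plasma gate, and 0, 49.9 and 128 CPM in the germinal centre gates, and it rose by 3.11 ± 0.34 log2 (adjusted p = 4.88e-08), with no overlap between the plasma cell gate and the germinal centre gates. Stx5a had plate values of 6.13, 441 and 782 CPM in the plasma cell gate, 30.3, 199 and 332 CPM in the pre-plasma gate, and 0.576, 115 and 183 CPM in the germinal centre gates, and it rose by 2.20 ± 0.41 log2 (adjusted p = 0.000125). Golgb1, the Golgi tether giantin, stood at 0.56 ± 0.48 log2 (adjusted p = 0.388), with plate values of 0, 139 and 284 CPM in the plasma cell gate, 0, 91.9 and 255 CPM in the pre-plasma gate, and 23, 73.2 and 127 CPM in the germinal centre gates. Its gates overlapped over most of their range.

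How even a gene was over the 19 plates of the plasma cell gate varied widely. The SD was 15.7% of the mean for Cope, 16.6% for Tmed10 and 17.5% for Lman2. It was 76.6% for Kdelr1, 77.2% for Sec23a and 147% for Sec24b. The summed counts in that gate were 69906 for Cope and 144 for Sec24b, and the part of counting error in the spread was not tested.

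With TMM the pre-plasma gate lay between the others in the summed level of the list. With scaling to spike-in counts, described below, it did not lie between them in the median over the list. Against the germinal centre gates that median was then 2.20 log2 for the pre-plasma gate and 2.17 log2 for the plasma cell gate. The values that follow use TMM. Against the germinal centre gates, 28 of the 34 genes tested were higher and 0 were lower, where 7.09% of the 7150 genes tested were higher and 8.14% lower; the median was 1.19 log2 over the list and -0.19 over all genes. This comparison shares its germinal centre pools with the one above. Kdelr1 was too low to be tested. By role, 9 of 13 COPII genes, 8 of 9 tested cargo receptors, 9 of 9 COPI and Arf genes and 2 of 3 tethers and SNAREs rose. Sec24d led at 7.78 ± 0.96 log2 (adjusted p = 6.31e-07) and was higher than in the germinal centre gates in 19 of 19 plates. Of those germinal centre plates 13 were at 0, so the fitted value again depends on the model. The summed counts gave 84.1 CPM in the pre-plasma gate and 3.83 CPM in the germinal centre gates. Mcfd2 followed at 3.12 ± 0.66 log2 (adjusted p = 0.00109), then Sec23a at 2.86 ± 0.82 log2 (adjusted p = 0.0153) and Tmed3 at 2.76 ± 0.75 log2 (adjusted p = 0.0102). Sec31a, Sec16a, Sec24a, Sec24b, Tmed2 and Golgb1 did not pass. The plates of the pre-plasma gate and the germinal centre gates did not overlap for Lman1, Lman2 and Tmed10, 3 of 35 genes, against 0.643% of all genes.

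Between the plasma cell gate and the pre-plasma gate, 18 of 35 genes were higher and 0 lower with TMM, where 8.42% of the 6564 genes tested were higher and 9.69% lower, but with spike-in scaling 2 were higher and 5 lower, where 2.79% of all genes were higher and 38.3% lower. The median over the list was 0.76 log2 with TMM, beside -0.27 over all genes, and it was -0.23 log2 with spike-in scaling, beside -1.25 over all genes. Spike-in scaling sets each pool to its spike-in counts and so reads RNA per cell, and it was added after the data had been seen. Lman1 and Tmed10 were higher under both scalings. Lman1 stood at 1.32 ± 0.12 log2 (adjusted p = 3.62e-09) with TMM and 0.36 ± 0.13 log2 (adjusted p = 0.0293) with spike-in scaling. Tmed10 stood at 1.49 ± 0.11 log2 (adjusted p = 5.55e-11) with TMM and 0.54 ± 0.11 log2 (adjusted p = 0.000235) with spike-in scaling. Its plates did not overlap between these gates, as for Cope and 0.67% of all genes.

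The 5 genes lower in the plasma cell gate with spike-in scaling were Sec13, Sec24b, Sar1b, Copz1 and Arf1. Sec13 changed its sign, at 0.45 ± 0.13 log2 (adjusted p = 0.0149) with TMM and -0.51 ± 0.14 log2 (adjusted p = 0.00367) with spike-in scaling. Arf1 had differed little with TMM, at 0.09 ± 0.10 log2 (adjusted p = 0.627), and stood at -0.87 ± 0.13 log2 (adjusted p = 4.57e-06) with spike-in scaling. Sec24d, higher in both gates than in the germinal centre gates, did not pass between them, at 0.91 ± 0.57 log2 (adjusted p = 0.316) with TMM and -0.09 ± 0.55 log2 (adjusted p = 0.899) with spike-in scaling. Against the germinal centre gates, the counts of genes of the list called moved little, but the share of all genes called rose in the pre-plasma gate. With spike-in scaling 32 of 35 genes were higher in the plasma cell gate, where 13.4% of all genes were. In the pre-plasma gate 30 of 34 were higher, where 32.6% of all genes were, against 28 of 34 and 7.09% with TMM. In the pre-plasma gate that scaling moved the values as much as above, with a median of 2.20 log2 over the list, against 1.19 with TMM, and of 0.81 log2 over all genes, against -0.19 with TMM.

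**Figure D3:**
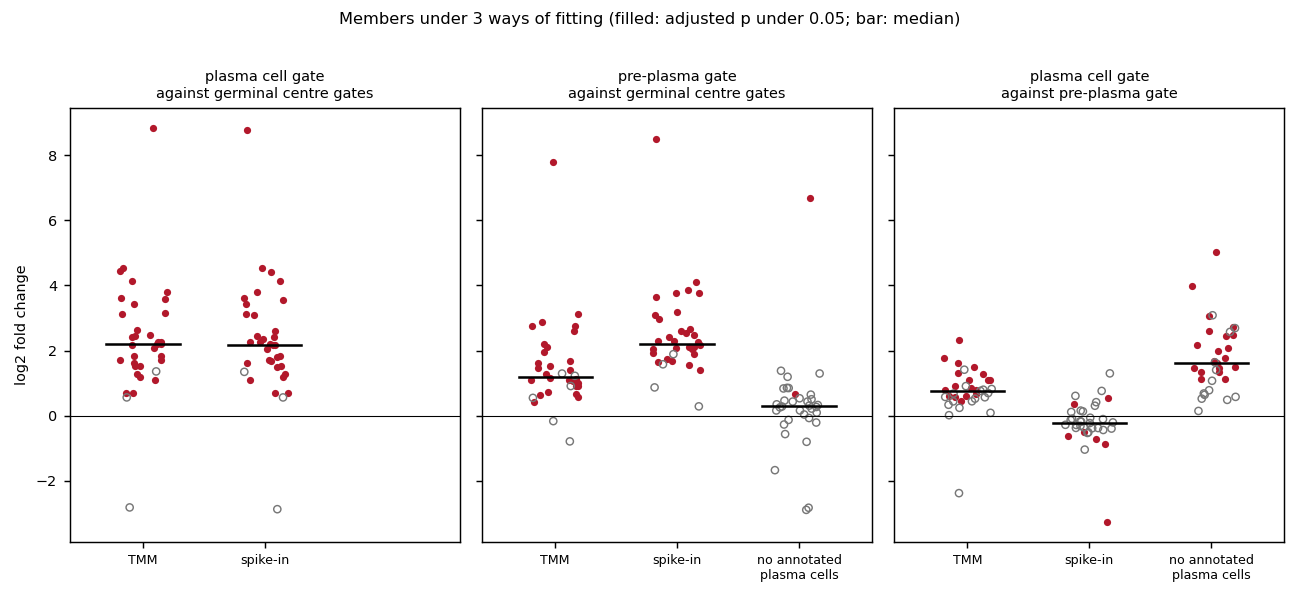
Log2 fold changes of the genes in the 3 gate comparisons with TMM scaling, with spike-in scaling and, where the pre-plasma gate is compared, without its annotated plasma cells (filled, adjusted p under 0.05 in either direction; bars, medians). Spike-in scaling leaves the first comparison in place and moves the median of the third from 0.76 to -0.23 log2; leaving out the annotated plasma cells moves the median of the second from 1.19 to 0.29 log2.

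The pre-plasma gate is mixed. The authors annotated 128 of its 282 cells as plasma cells, 29 as activated pre-plasma (prePC.Act), 27 as memory-like pre-plasma (prePC.Mem), 1 as pre-memory, and 97 as dark zone, light zone or light-to-dark zone cells. The 35 genes held 1.47% of the counts of its annotated plasma cells, 0.899% in activated cells, 0.882% in memory-like cells, 0.53% in light zone cells and 0.458% in dark zone cells. In the plasma cell gate as a whole the share was 1.71%, and in the germinal centre gates 0.455%. In such summed pools, fewer cells of a type and less RNA per cell cannot be told apart.

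When the annotated plasma cells were left out of the pre-plasma gate, 17 plates with 5 to 14 cells per pool remained, 141 cells in place of 277. Against the germinal centre gates, 2 of 34 genes were then higher, where 0.653% of all genes were, and the median was 0.29 log2, beside -0.59 over all genes. The 2 were Sec24d, at 6.69 ± 1.38 log2 (adjusted p = 0.0033), and Lman2, at 0.67 ± 0.15 log2 (adjusted p = 0.00655). The fitted value of Sec24d depends on the model here too, since most germinal centre plates were at 0. Lman1 stood at 1.29 ± 0.52 log2 (adjusted p = 0.158) and Tmed10 at 0.85 ± 0.29 log2 (adjusted p = 0.0871), and neither passed. Of the gate's cells not annotated as plasma cells, over all plates, 97 were annotated as germinal centre states, 29 as activated and 27 as memory-like. These values therefore do not describe the activated and memory-like cells alone. The part of the germinal centre cells and of the smaller pools in these counts was not tested. Against the same remaining cells, the plasma cell gate was higher for 20 genes, where 10.7% of all genes were higher, with a median of 1.63 log2; Tmed10 stood at 2.47 ± 0.29 log2 (adjusted p = 8.47e-07) and Tmed3 at 3.97 ± 0.86 log2 (adjusted p = 0.00144). If the annotation rests on the same transcripts, leaving out cells by it is not independent of these genes.

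**Figure D4:**
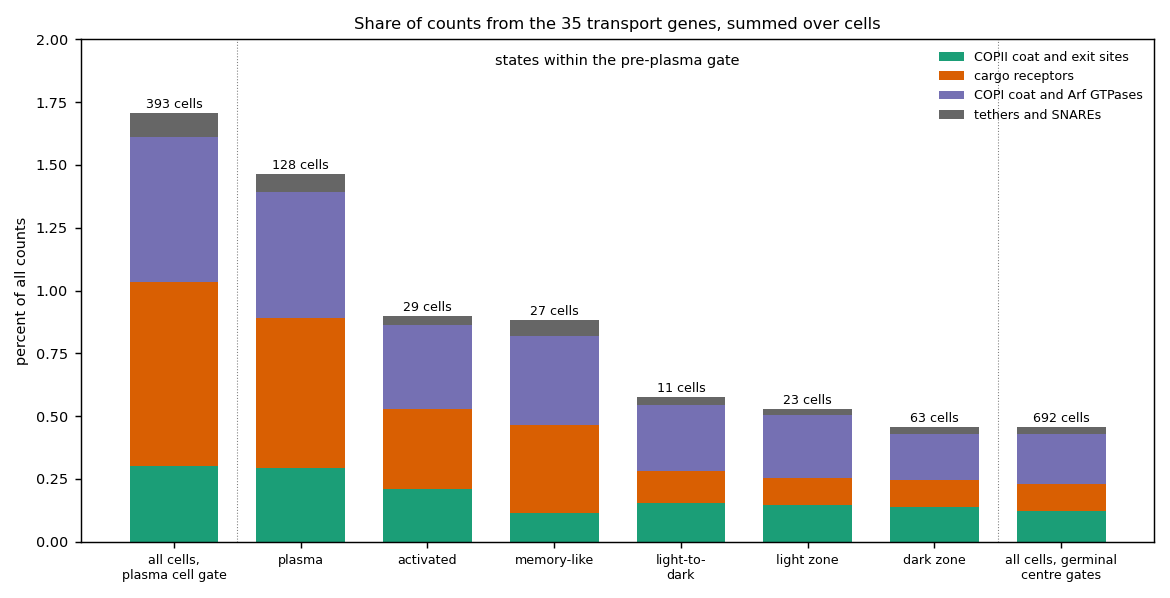
Share of all counts taken by the 35 genes, stacked by role group, in the plasma cell gate, in each annotated state of the pre-plasma gate, and in both germinal centre gates, with the number of cells above each bar. Within the pre-plasma gate the share was 1.47% in annotated plasma cells and 0.458% in dark zone cells; counts are summed over cells, with no error bar.

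Annotated states gave the same outline with a class that may have been defined on these transcripts. In annotated plasma cells, 33 of 35 genes were higher and 0 lower than in annotated germinal centre B cells, where 15.1% of 7649 genes were higher and 15.8% lower, with a median of 2.09 log2 beside -0.25 over all genes. Sec24b stood at -1.66 ± 0.79 log2 (adjusted p = 0.122) and Golgb1 at 0.74 ± 0.34 log2 (adjusted p = 0.104), and neither passed. Sec24c did pass here, at 1.98 ± 0.42 log2 (adjusted p = 0.000587).

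For the rare states, counts were summed per sampleID, which leaves 2 pools per state, and the 6 states were fitted together. Values are given as C57BL/6F and C57BL/6M. The mean level was highest in plasma cells for 29 of 35 genes, where 21.4% of 11037 genes were, in memory-like cells for Sar1b, Lman2, Tmed9, Cope and Bet1, and in activated cells for Sec24b. For 26 of 35 genes both activated pools lay above both light zone pools and below both plasma pools, against 4.72% of all genes. Sec24d, at 167 and 193 CPM in plasma cells and 85.6 and 47.9 CPM in activated cells, was near 0 in light zone cells, at 0.188 and 0.204 CPM. Sec23b, at 350.3 and 353 CPM in plasma cells, stood at 235 and 201 CPM in activated and 52.4 and 115 CPM in light zone cells. Kdelr1 did not show this middle step, with 36.3 and 37.1 CPM in plasma cells, 0.639 and 0.189 CPM in activated cells and 2.44 and 0.611 CPM in light zone cells. Its activated values rest on 3 counts in 29 cells. Even in the plasma cell gate only 75 of 393 cells held a Kdelr1 count. So few activated cells cannot show that the step is absent.

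**Figure D5:**
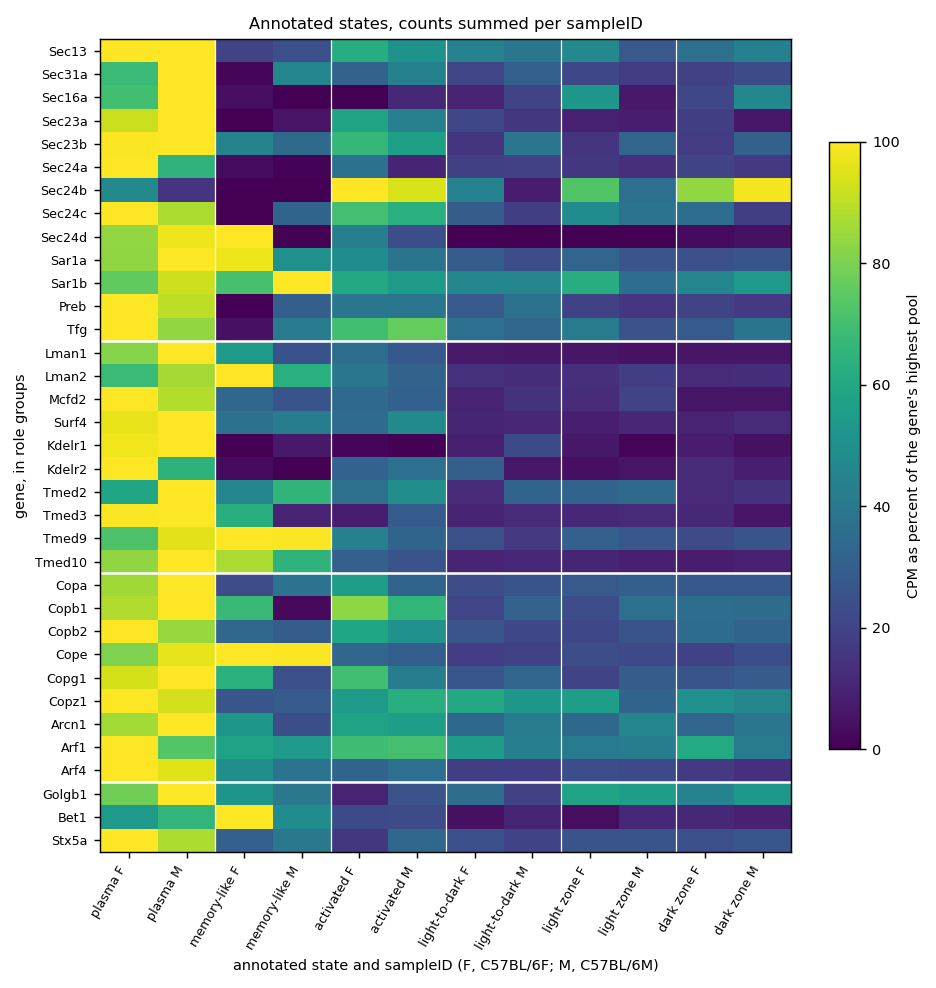
CPM of each gene as a percent of its highest pool, for the 6 annotated states in each sampleID, in role groups (white lines). Plasma pools have the brightest tiles for most genes; Sec24b is brightest in activated and dark zone cells, and memory-like pools differ between the sampleIDs for Sec24d, which had 198 CPM in C57BL/6F and 1.24 CPM in C57BL/6M.

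Against light zone cells, activated cells were higher for 3 of 35 genes and lower for 0, where 0.516% of all genes were higher: Lman1 at 2.51 ± 0.34 log2 (adjusted p = 0.00521), Surf4 at 2.08 ± 0.27 log2 (adjusted p = 0.00454) and Tmed10 at 1.54 ± 0.24 log2 (adjusted p = 0.0107). Tmed10 had 617 and 519 CPM in activated and 212 and 178 CPM in light zone cells. Sec24d, at 8.19 ± 1.94 log2 (adjusted p = 0.0975), did not pass. Activated cells were deep, with a median of 229914 counts and 0.886% spike-in RNA, against 43120 counts and 4.34% in light zone cells, and with spike-in scaling 28 genes of the list were higher, where 23.8% of all genes were and their median was 2.31 log2, against -0.12 with TMM. The part of depth in these counts was not tested beyond thinning each cell to 10000 counts, under which 2 genes were higher.

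Between plasma and activated cells, Tmed10 at 1.70 ± 0.24 log2 (adjusted p = 0.0103), Cope at 1.48 ± 0.17 log2 (adjusted p = 0.00307) and Arf4 at 1.50 ± 0.27 log2 (adjusted p = 0.0357) were higher in plasma cells with TMM, where 0.843% of all genes were higher and 0.0634% lower, and all 3 changed sign with spike-in scaling. With that scaling edgeR called 0 genes of the list higher and 2, Sar1b and Arf1, lower in plasma cells, where 12.3% of all genes were lower. The order of these states therefore depends on whether a level is read as a share of the RNA or per spike-in count.

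Memory-like cells were lower than plasma cells for 7 of 35 genes and higher for 0, where 5.38% of all genes were lower, and the median over the list, -1.49 log2, was close to that over all genes, -1.50. With spike-in scaling 28 were lower, where 22.9% of all genes were, with medians of -2.95 log2 over the list and -2.76 log2 over all genes. DESeq2 called 15 lower, where it called 1601 of all 11037 genes lower. The 7 were Sec13, Sec24a, Lman1, Surf4, Kdelr2, Copz1 and Arf4. Kdelr2 stood at -6.01 ± 0.99 log2 (adjusted p = 0.0161), with 14.2 and 1.24 CPM in memory-like and 476 and 308 CPM in plasma cells. Cope did not follow, with 2721 and 2701 CPM in memory-like and 2200.1 and 2623 CPM in plasma cells. Sec24b had 0 counts among 1577711 in the 63 memory-like cells, against 16.6 and 5.42 CPM in plasma cells. At 3 counts that depth gives 1.9 CPM, which bounds the level only if counts are independent. They were not spread evenly in the plasma cell gate, where 14 of 393 cells held all 144 Sec24b counts and 1 cell 25.7%. So few memory-like cells cannot show that the level differs from that in plasma cells. Memory-like cells were shallow, with a median of 16638 counts and 376 genes, against 70190 counts and 1510 genes in plasma cells, and 12.2% of their counts were immunoglobulin, against 6.4%. The 63 cells of this state divide into 33 sorted in the plasma cell gate, with a median of 307 genes and 22.4% immunoglobulin, 27 sorted in the pre-plasma gate, with 703 genes and 7.21%, and 3 in other gates. The part of depth, gate and immunoglobulin in these differences was not tested.

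Within the germinal centre edgeR called no gene of the list. Between annotated dark zone and light zone cells, 0 of 28 tested genes were called, where 1.41% of 5447 genes were called. Of the 28, 2 had an unadjusted p under 0.05. DESeq2 called 1 of the list higher and 1 lower, where it called 10.4% of all genes, 458 higher and 111 lower. Kdelr2 had plate values of 0, 43.2 and 109 CPM in dark zone cells and 0, 0 and 155 CPM in light zone cells. It stood at 4.34 ± 1.66 log2 (adjusted p = 0.291) in edgeR and 4.45 ± 0.98 log2 (adjusted p = 0.000245) in DESeq2. Arf4, lower in dark zone cells by DESeq2, stood at -0.72 ± 0.30 log2 (adjusted p = 0.358) in edgeR. The classes overlapped for both genes.

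Between C57BL/6M and C57BL/6F in the plasma cell gate, over 10 and 9 plates, edgeR called 0 of 34 genes tested, where 0.665% of 6019 genes were called; 2 had an unadjusted p under 0.05, and DESeq2 called 0. The 2 were Sar1b at 0.39 ± 0.19 log2 (adjusted p = 1) and Arf1 at -0.49 ± 0.22 log2 (adjusted p = 0.923). The difference between gates was also tested for dependence on the sampleID. No gene of the list, and none of all genes, had a class by sampleID term with an adjusted p under 0.05 in edgeR, in any of the 3 gate comparisons or the comparison of annotated plasma and germinal centre B cells; at an unadjusted p under 0.05 there were 1, 0, 2 and 1 genes of the list. Taken alone, C57BL/6M plates gave 30 higher genes of the list and C57BL/6F plates 23 between the plasma cell gate and the germinal centre gates. Of all genes, 715 of 6519 and 516 of 6514 were higher there. Between the pre-plasma gate and the germinal centre gates C57BL/6M plates gave 15 and C57BL/6F plates 16, against 28 with all plates. Of all genes, 260 of 6888 and 249 of 6936 were higher. Between the plasma cell gate and the pre-plasma gate C57BL/6M plates gave 16 and C57BL/6F plates 5, against 18 with all plates. Here the counts over all genes were 406 of 6245 in C57BL/6M and 172 of 6278 in C57BL/6F. Sex, animal and handling cannot be told apart between the sampleIDs.

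Other genes of the route were mixed. Of 75 further ER to Golgi transport genes listed, 73 were in the matrix and 61 were tested between the plasma cell gate and the germinal centre gates. Of the 61, 22 rose, 6 fell and 33 did not pass, where 13.6% of all genes were higher and 21.3% lower. The median over the 61 was 0.61 log2, beside -0.50 over all genes. The largest change was that of Creb3l2, which encodes a membrane-bound transcription factor known to act on COPII genes in other secretory cells. Its plate values were 67, 196 and 282 CPM in the plasma cell gate, 0, 37.3 and 87.7 CPM in the pre-plasma gate, and 0, 0 and 0.827 CPM in the germinal centre gates, and it rose by 10.91 ± 0.49 log2 (adjusted p = 1.4e-15) against germinal centre plates of which 17 of 19 were at 0. Nbas, a subunit of an ER tether, rose by 5.48 ± 1.18 log2 (adjusted p = 0.000698). Its plate values were 0, 44.3 and 129 CPM in the plasma cell gate and 0, 0 and 22.3 CPM in the germinal centre gates. These gates overlapped, and 10 of 19 germinal centre plates were at 0. The fitted values of Creb3l2 and Nbas against such plates depend on the model. Ergic1, a cycling membrane protein, rose by 5.29 ± 0.46 log2 (adjusted p = 7.66e-10), and Arfgap3, which ends the Arf cycle, by 5.05 ± 0.78 log2 (adjusted p = 1.07e-05). Ergic1 had plate values of 620.2, 1206 and 1682 CPM in the plasma cell gate, 22, 257 and 456 CPM in the pre-plasma gate, and 0, 32.6 and 74.1 CPM in the germinal centre gates, with no overlap between the plasma cell gate and either other gate. The largest fall was that of Arf3, at -4.39 ± 1.54 log2 (adjusted p = 0.0304). In the pre-plasma gate with TMM, 8 of 62 rose and 2 fell against the germinal centre gates, where 7.09% of all genes were higher and 8.14% lower. The median over the 62 was 0.27 log2. With spike-in scaling 32 of 62 were higher and 0 lower by edgeR, where 32.6% of all genes were higher, with a median of 1.32 log2. The largest with TMM were Vcpip1, at -3.13 ± 0.98 log2 (adjusted p = 0.0295), Ergic1, at 3.0 ± 0.46 log2 (adjusted p = 1.99e-05), Yipf5, at 1.24 ± 0.42 log2 (adjusted p = 0.0432), Gorasp2, at 1.21 ± 0.19 log2 (adjusted p = 3.58e-05), and Yif1b, at 1.17 ± 0.23 log2 (adjusted p = 0.000508). Between the plasma cell gate and the pre-plasma gate, 11 of 60 were higher and 2 lower with TMM, where 8.42% of all genes were higher and 9.69% lower. The largest changes were those of Cul3 at -3.32 ± 1.15 log2 (adjusted p = 0.0466) and Bnip1 at -3.29 ± 1.03 log2 (adjusted p = 0.0259), which were lower. Creb3l2 at 2.95 ± 0.68 log2 (adjusted p = 0.00252), Ergic1 at 2.31 ± 0.23 log2 (adjusted p = 1.71e-08) and Arfgap3 at 2.25 ± 0.74 log2 (adjusted p = 0.0357) followed and were higher. With spike-in scaling 2 of 60 were higher, Creb3l2 and Ergic1, where 2.79% of all genes were higher. Another 14 were lower, Cul3 and Bnip1 among them, where 38.3% of all genes were lower. The median over the 60 was -0.48 log2, beside -1.25 over all genes.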

How the data were processed

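The 20 plates carry 2 sampleIDs and could not be tied one to one to the series' 20 samples. Single cells were index-sorted into 96-well plates and sequenced from the 5' end with FB5P-seq, after 22 preamplification cycles per the labels. The submitters' processing notes name STAR 2.5.3a, HTSeq 0.9.1 and mm10. The deposited matrix holds counts of molecular tags per gene and cell. Spike-in shares are a fraction of a cell's counts in the authors' deposited cell table. It also gives gate, state, plate and sex, the last as the letter F or M. The highest count per gene and cell is 1024, the number of different tags of 5 bases; 95 cells had a gene there, and no gene of the list was there in any cell.

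Counts were summed per plate and class, with at least 5 cells. Low genes were removed with filterByExpr, TMM was applied, and edgeR 4.0.16 in R 4.3.3 fitted quasi-likelihood models with the plate as a block; the replicate pairing is by plate, since each plate carries all gates. Benjamini-Hochberg adjustment ran over all genes tested, and the standard error is the log2 fold change over the root of F. The 6 states were fitted with sampleID as a term. The procedure was tested on simulated data. DESeq2 1.42.0 was an alternative. Spike-in scaling, an undoing of tag collisions and the class by sampleID term were added after the data had been seen. Full plate values are given for the 4 genes of each role with the largest change, for those that did not pass and for paralogue pairs; among the other transport genes, the 5 largest called are named. The genes and lists were chosen with earlier results of these data known.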

Additional observations from a re-analysis of the deposited data

Results flagged for a closer look

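Within the plates of 1 sampleID and 1 gate, a single plate stood far from the others in 6 of the 62 groups examined, by the gap to the nearest plate over the range; chance gives about 1 group in 20. All 6 were in C57BL/6F, whose gates have 9 plates each. Plate 2 was lowest in the pre-plasma gate for the summed list, at 6101 CPM with the next plate at 10623 CPM, and for the summed cargo receptors, at 2023 CPM with the next at 3769 CPM. Plate 4 was lowest in the germinal centre gates for the summed tethers and SNAREs, at 23.6 CPM with the next at 191 CPM. In the plasma cell gate, plate 7 was lowest for Copa, at 78.1 CPM with the next at 302 CPM, plate 3 was highest for Sec23a, at 192 CPM with the next at 97.3 CPM, and plate 10 was highest for Sec24b, at 20.9 CPM with the next at 7.66 CPM.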

How the results depend on the processing

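Values here are counts of genes of the list (35 listed) and of all genes called. Between the plasma cell gate and the germinal centre gates, the 32 genes higher stayed within 1.5 times under every alternative run. Without the replicate block, 32, 26 and 18 genes of the list were higher in the 3 gate comparisons (all genes 1920, 909 and 902), and 42 genes in all were called between dark and light zone cells. DESeq2's Wald test called more in all: 3730, 1982 and 2364 in the gate comparisons, 3629 between annotated plasma and germinal centre B cells, 569 between dark and light zone, 999, 616 and 1990 for activated against light zone, plasma against activated and memory-like against plasma cells, and 83 between sampleIDs. It called 1 gene of the list lower in each of the plasma cell gate comparisons and in annotated plasma cells (Sec24b), 1 higher and 1 lower in dark zone cells, 8 higher and 1 lower in activated cells, 10 higher in plasma against activated cells and 15 lower in memory-like cells.

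C57BL/6F plates alone gave 953, 529 and 302 genes in the gate comparisons, 1013 in annotated plasma cells and 14 in dark zone cells; C57BL/6M plates alone gave 1527, 495, 764 and, in dark zone cells, 31. In the pre-plasma gate 16 and 15 of the list were then higher than in the germinal centre gates, and 5 in the plasma cell gate against the pre-plasma gate with C57BL/6F alone. With no filter on low counts, 133 genes were called in dark zone cells, 404 in memory-like cells (4 of the list lower) and 77 between sampleIDs; DESeq2 size factors in edgeR left 4 of the list lower in memory-like cells. With thinned cells, 5 of the list and 172 genes were called in plasma against activated cells, and 418 genes in memory-like cells.

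Spike-in scaling, chosen after seeing the data, called 2481 genes in the pre-plasma gate, 2699 in the plasma cell gate against the pre-plasma gate (2 of the list higher, 5 lower), 120 in dark zone cells, 2677 in activated cells (28 of the list higher), 1384 in plasma against activated cells (0 higher, 2 lower), 2537 in memory-like cells (28 lower) and 23 between sampleIDs. Under it, log2 changes turned to -0.51 for Sec13, -0.38 for Sec23b, -0.28 for Sar1a, -0.17 for Lman2, -0.065 for Surf4, -0.11 for Kdelr2, -0.36 for Tmed9, -0.19 for Copa and -0.38 for Arcn1 between the plasma cell gate and the pre-plasma gate, and to -0.27 for Tmed10, -0.49 for Cope and -0.43 for Arf4 between plasma and activated cells. Without annotated plasma cells in the pre-plasma gate, 2 of the list and 358 genes were called against the germinal centre gates, and Sar1b, Copa, Arcn1 and Stx5a turned to -0.075, -0.13, -0.21 and -0.27. The cause was not tested. Leaving out a sampleID from the states leaves 1 pool per state and no test. Of 2907 values of single genes refitted over the alternatives, 2544 kept sign and side of the threshold, 117 kept the sign and no longer passed, 99 kept the sign and newly passed, and 147 changed sign, 16 of them called as reported above and 131 not; 24 of the sign changes came from spike-in scaling of the plasma cell gate against the pre-plasma gate. Of 210 values without 1 sampleID, 12 changed sign, none of them called.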
